A study of Mus musculus with 16 samples.

Results

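Ribosomal protein genes were taken by name from the deposited tables of gene expression in the cloaca of the mouse embryo and in the tissues that form from it. A feature was a member if its symbol followed the Rpl or Rps pattern with a number, or was Rpsa, Rplp0, Rplp1 or Rplp2. S6 kinase genes and listed pseudogenes were left out. This gave 85 members among 23234 features, 52 of the large and 33 of the small ribosomal subunit. Of these, 77 are called core members here, and 8 are paralogs, genes that resemble a core member (Rpl3l, Rpl7l1, Rpl10l, Rpl22l1, Rpl36al, Rpl39l, Rps4y2 and Rps27l). The members lay on 19 chromosomes, with 14 on chromosome 7 and 4 on the X chromosome. Fau and Gnb2l1, which also encode ribosomal proteins, are outside the name rule.

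The ribosome is the machine that translates mRNA. Its small subunit reads the message, and its large subunit joins the amino acids. Each cytoplasmic ribosome carries about one copy of nearly every ribosomal protein, except the acidic stalk proteins, which come in several copies. In vertebrates most of the mRNAs start with a cytosine and a run of pyrimidines, the 5′ terminal oligopyrimidine (TOP) motif, through which growth signals acting on mTOR control their translation. In mice and humans, loss of 1 gene copy of several members gives developmental defects of limited tissues, among them the skeleton, skin pigment and blood.

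All tissue came from wild-type male embryos of CD1, an outbred mouse stock, and was cut by laser from stained frozen sections. At E10.5 the dorsal and the ventral part of the cloaca were taken from each of 4 embryos. At E13.5 the hindgut and the urethra were taken from each of 4 other embryos, so that 16 libraries fall into 4 groups of 4. None of the groups was treated, and the labels say that samples were not pooled. The 2 tables, 1 for each age, hold a single value for each gene and region in FPKM, a read measure divided by transcript length and by the number of mapped fragments. The sources used here do not say how the 4 libraries of a region were combined. No spread between embryos can be had from these values, so that none of the comparisons has a replicate check or a test, and the depth behind them is unknown. Each age is its own table, and no source used here says whether the ages were scaled together, so levels across ages are set side by side with that limit.

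Defining markers of the labelled tissues were looked up in each region. At E10.5 hindgut epithelium markers were low and mixed, with Cdx2, a regulator of intestinal identity, at 15.5 FPKM dorsally and 0.153 FPKM ventrally, and Vil1, an epithelial brush border gene, at 1.83 and 5.99 FPKM. At E13.5, 5 of 6 hindgut epithelium markers were at least 2-fold higher in hindgut, and Cdx2 was listed at 0 in hindgut and at 0.025 FPKM in urethra. All 6 urethral and urothelial markers had higher FPKM in urethra at this age, 5 of them at least 2-fold. Summed macrophage markers stood at 3.46 FPKM in hindgut and 40.6 FPKM in urethra, and 5 of the 6 of them above the minimum were 2-fold higher in urethra. Summed globin and other erythroid markers stood at 886 FPKM in dorsal and 1183 FPKM in ventral cloaca, and at 35.3 FPKM in hindgut and 76.7 FPKM in urethra. General epithelial markers summed to 1801 and 1761 FPKM at E10.5 and to 2389 FPKM in hindgut and 1502 FPKM in urethra, where 8 of 10 were lower in urethra. Mesenchymal markers summed to 251 and 237 FPKM at E10.5 and to 84.1 FPKM in hindgut and 135 FPKM in urethra. At E13.5, however, 8 of the 12 were lower in urethra and 4 higher. The higher sum there rests on Mest, at 9.89 FPKM in hindgut and 75.2 FPKM in urethra. Endothelial markers summed to at most 2.07 FPKM in any region. The part of these other cell types in the values below was not tested. In tissue pieces, fewer cells of a type and less RNA per cell cannot be told apart.

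The coding sequences and start regions that carry the points below come first. Rpl41, the most abundant member in every region, encodes one of the shortest proteins known, and its coding sequence is shown to make that size visible, with the start and stop codons in capitals (GENCODE vM21, GRCm38, minus strand, coding positions within chr10:128548387-128548960).
Rpl41: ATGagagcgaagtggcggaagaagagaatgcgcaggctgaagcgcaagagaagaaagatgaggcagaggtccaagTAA

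Rps27 and its paralog Rps27l, the member with the largest difference at E13.5, are shown as a pair so that the extent of their likeness can be seen. Their coding sequences have 255 bases each and align without gaps, and capitals mark the 61 bases that differ between them. The first lies within chr3:90212725-90213615 on the minus strand and the other within chr9:66946175-66949357 on the plus strand (GENCODE vM21, GRCm38).
Rps27: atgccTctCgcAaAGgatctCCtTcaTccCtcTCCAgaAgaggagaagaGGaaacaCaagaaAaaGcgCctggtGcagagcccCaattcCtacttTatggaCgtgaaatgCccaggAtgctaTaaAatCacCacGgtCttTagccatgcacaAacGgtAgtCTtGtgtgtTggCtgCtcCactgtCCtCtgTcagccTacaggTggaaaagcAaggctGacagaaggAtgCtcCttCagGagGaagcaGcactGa
Rps27l: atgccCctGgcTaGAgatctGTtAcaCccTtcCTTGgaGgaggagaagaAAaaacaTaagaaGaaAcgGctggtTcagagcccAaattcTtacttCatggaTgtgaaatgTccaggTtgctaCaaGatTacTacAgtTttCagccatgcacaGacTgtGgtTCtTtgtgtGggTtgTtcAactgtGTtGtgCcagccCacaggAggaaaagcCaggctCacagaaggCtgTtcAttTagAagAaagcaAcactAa
The longest stretch without a difference was 11 bases, and 194 of the 255 bases (76.1%) were identical.

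Start windows reach from 10 bases before to 20 bases after the annotated start of transcription (RefSeq, GRCm38.p6), and the longest run of pyrimidines is in capitals. Rpl27a (chr7:109519185-109519214, plus strand) and Rpl35 (chr2:39005112-39005141, minus strand) are shown for their long runs, picked for that after the runs were seen. Rps6 (chr4:86857348-86857377, minus strand) and Rps27 (chr3:90213629-90213658, minus strand) have runs of 10 and 9 bases, above the median of 7 over core members. Rpl41 (chr10:128549149-128549178, minus strand) has a run of 3 bases, and Rps27l (chr9:66946076-66946105, plus strand) has a run of 7, equal in size to that median. Both runs lie wholly before the annotated start, and that of Rps27l touches the edge of the window. In the other window of Rps27l the longest run was 4.
Rpl27a: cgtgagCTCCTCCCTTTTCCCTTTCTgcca
Rpl35: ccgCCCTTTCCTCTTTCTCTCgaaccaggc
Rps6: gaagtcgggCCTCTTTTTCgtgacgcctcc
Rps27: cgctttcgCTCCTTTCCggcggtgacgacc
Rpl41: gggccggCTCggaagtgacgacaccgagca
Rps27l: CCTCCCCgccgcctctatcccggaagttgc
RefSeq windows were at hand for 57 of the 77 core members. A run of at least 8 pyrimidines (C or T, on the gene's strand) was present in 23 of the 57 (40.4%), against 13.01% of 27025 genes with a window. A run of at least 8 purines, the same letters on the other strand, was present in 5.26% of the core members and 15.4% of all genes. The start base was C and the next 4 bases were pyrimidines in 13 of the 57 (22.8%), against 3.01% of all genes. In the full window, 250 bases before to 50 after the start, CCGGAAG on either strand was found in 24 core members (42.1%) and 9.93% of all genes. TATAAA on either strand, from 50 to 10 bases before the start, was found in 0 core members and 3.76% of all genes. These letters and windows were chosen after values were seen, CCGGAAG can overlap a pyrimidine run on the other strand, and a match is not evidence of use. For a gene with several windows any match counted.

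The members were among the most abundant mRNAs in all regions. They held 21.2% of the summed FPKM in dorsal cloaca and 20.8% in ventral cloaca at E10.5, and 39.3% in hindgut and 40.8% in urethra at E13.5. The large subunit members held 12.8% and 12.3% at E10.5 and 22.3% and 23.1% at E13.5, in the same order of regions. Among the 100 features with the highest FPKM in a region, 56 and 57 were members at E10.5, and 66 and 68 at E13.5. Every core member ranked within the first 1000 features in each of the 4 regions. When only the members that share no row or span with another feature were summed, the shares were 12.8%, 12.6%, 25.02% and 25.34%. Of the 85 members, 34 share a row name or a genomic span with another feature. Their values are uncertain, since reads of overlapping genes cannot be told apart without knowledge of the strand. Among genes named below, Rpl5, Rpl27a, Rpl39, Rplp2, Rps2, Rps3 and Rpsa belong to the 34, beside those marked as shared where they are named.

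**Figure D1:**
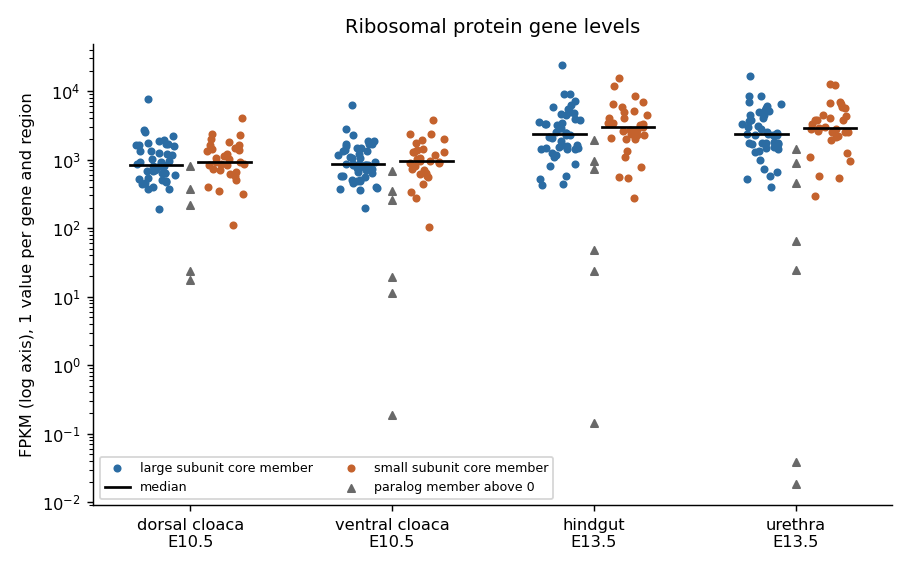
FPKM (log axis) of each core member and each paralog above 0 in the 4 regions, with a single deposited value per gene and region. Points are genes, black lines are medians of the core members of each subunit, and the ages are separate tables that may not share a scale. Core members lie between 104 and 24104 FPKM, and the paralogs extend far below them.

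Within a region the core members were spread over a wide range, although their products stand at nearly equal numbers in the ribosome. The median core member stood at 877 FPKM in dorsal and 909 FPKM in ventral cloaca, and at 2584 FPKM in hindgut and 2540 FPKM in urethra. Rpl41 was at 7795 FPKM in dorsal cloaca, 6223 FPKM in ventral cloaca, 24104 FPKM in hindgut and 16894 FPKM in urethra. It had the highest FPKM of all features in both regions at E13.5. Rps27, a small subunit protein, was at 4093 and 3730 FPKM at E10.5 and at 15474 and 12523 FPKM at E13.5, dorsal side first. Rps29, also of the small subunit, stood at 2017, 2004, 11739 and 12154 FPKM, Rpl39, an X-linked gene of the exit tunnel, at 2675, 2285, 8983 and 8408 FPKM, and the stalk protein Rplp2 at 1675, 1865, 9196 and 8492 FPKM. These 5 had the highest mean over the 4 values.

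At the other end, Rps15a had the lowest value of the core members in every region, at 112, 104, 272 and 297 FPKM. Rpl22, an RNA-binding protein of the large subunit, was at 190, 199, 429 and 399 FPKM. Rps3, which sits where mRNA enters the ribosome, stood at 319, 279, 549 and 540 FPKM, Rpl15 at 435, 385, 445 and 526 FPKM, and Rpl21 at 402, 373, 516 and 577 FPKM. The highest core value was 69.5, 59.8, 88.7 and 56.9 times the lowest in the 4 regions. The lowest was Rps15a throughout, whose annotated transcript of 5179 bases is the longest of the core members. Against the next lowest, Rpl22, the ratios were 41.02, 31.2, 56.2 and 42.4. The order of the core members was nearly the same in both regions of an age, with a Spearman rho of 0.98 over 77 genes at each age. Genes are not independent replicates, and both values of a gene share its length and base composition.

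Level and transcript length went together over the core members. With length taken as the median over the RefSeq-linked protein-coding transcripts of GENCODE vM21, Spearman rho was -0.55 in dorsal cloaca, -0.52 in ventral cloaca, -0.67 in hindgut and -0.62 in urethra (77 genes). That definition gives Rps20 3706 bases, longer than its locus of 1128 bases, and 2 others were tried after this was seen. With transcripts that lie inside the deposited locus, rho was -0.69, -0.68, -0.87 and -0.84 over 69 genes. With RefSeq-linked transcripts inside the locus it was -0.71, -0.69, -0.89 and -0.85 over 64 genes. The direction was the same under all 3, the size was not, and each later definition gave a value at least as far from 0. FPKM is already divided by length, and the part of length estimation, amplification and fragment size in this relation was not tested.

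**Figure D2:**
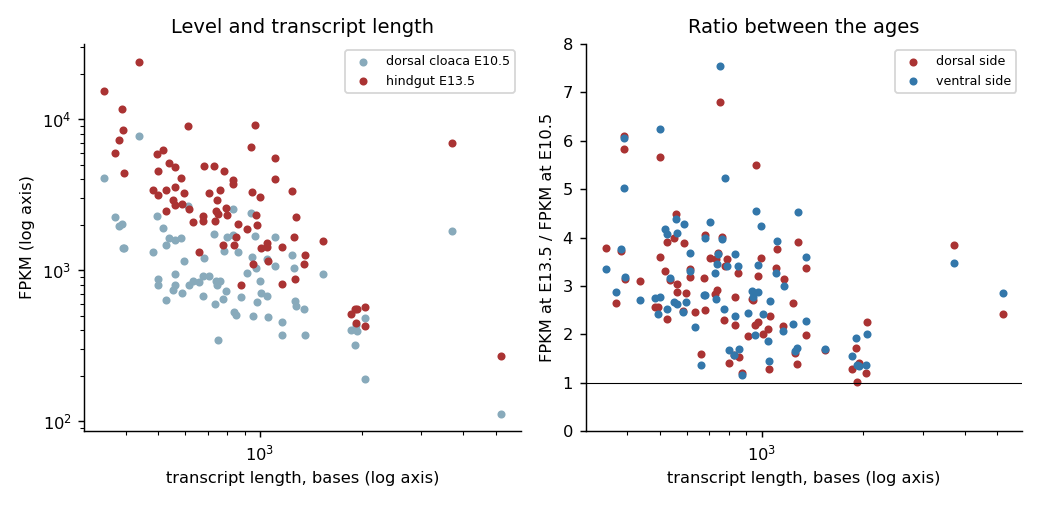
Left, FPKM (log axis) against transcript length in bases (log axis, the first length definition) for the core members in dorsal cloaca and hindgut. Right, the ratio of the FPKM at E13.5 to that at E10.5 on each side against the same length, with a line at 1. Shorter transcripts lie higher in both panels, and Rps20, at 3706 bases, lies apart.

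No member differed by 2-fold between the regions of an age. The difference was taken as log2(FPKM + 1), ventral minus dorsal at E10.5 and urethra minus hindgut at E13.5, and a difference of at least 1 was counted as 2-fold, which is a rule of size. Of 82 members with at least 1 FPKM in either region, 0 were 2-fold higher ventrally and 0 dorsally at E10.5, where 10.6% and 9.62% of 12379 features were. For E13.5 the count was 0 members on the urethral side and 0 on the hindgut side, where 4.16% and 4.59% of 12369 features passed. Features that are no members but have a mean of at least 100 FPKM were taken as a class after values were seen. Among 522 of them at E10.5, 3.07% were 2-fold higher ventrally and 2.3% dorsally. Among 617 at E13.5, 1.46% had the urethra on the higher side and 3.4% the hindgut.

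The differences of the members lay close to 0. At E10.5 their median was -0.03, from -0.60 for Rpl7l1 to 0.32 for Rpl24, with an SD of 0.17 across the 82 genes, and 35 lay above 0 and 47 below. The median of all features was 0.04 and their SD 0.90, with 6484 above 0 and 5895 below. For the 522 features of at least 100 FPKM that are no members, the median was -0.07 and the SD 0.72. Of these, 218 lay above 0 and 304 below. Under quantile normalization the median of the members turned to 0.04, so that its sign depends on the scaling. At E13.5 the median of the members was 0.04, from -0.67 for Rps27l to 0.40 for Rps4y2, with an SD of 0.21, and 45 lay above 0 and 37 below. The median of all features was 0.01 and their SD 0.70, with 6399 above 0 and 5970 below. For the 617 features of at least 100 FPKM that are no members, the median was -0.15 and the SD 1.01. Of these, 192 lay above 0 and 425 below. Core members of the small and the large subunit had medians of -0.01 and -0.03 at E10.5 and of 0.01 and 0.08 at E13.5. Of the 77 core members, 34 lay above 0 at E10.5 and 43 at E13.5, and 46 had the same sign at both ages. The same count over all features was not made, so that 46 cannot be read as a trait of these genes.

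**Figure D3:**
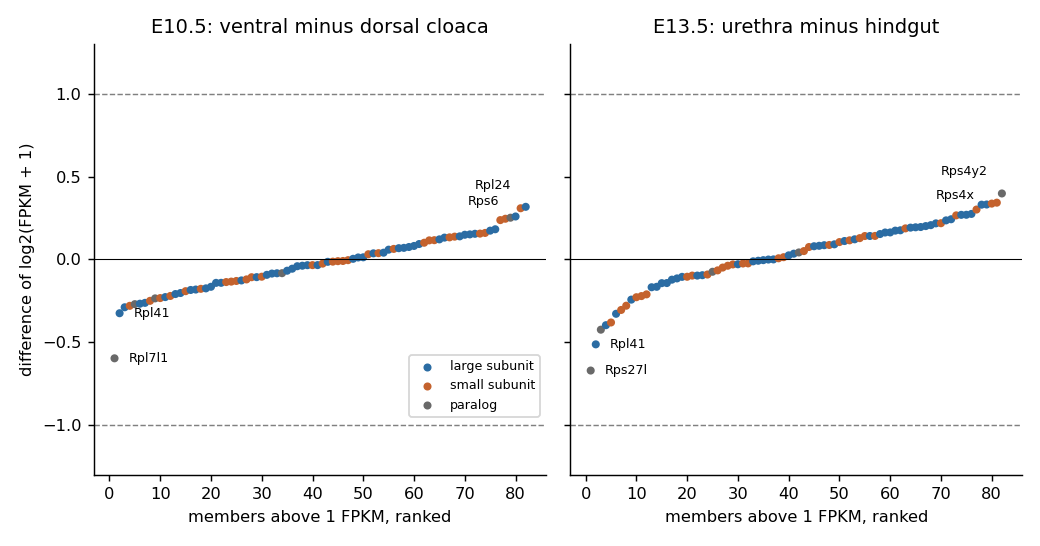
Difference of log2(FPKM + 1), ventral minus dorsal cloaca on the left and urethra minus hindgut on the right, for the 82 members above the minimum of 1 FPKM, ranked. Points are genes coloured by subunit or as paralogs, and dashed lines mark 2-fold in either direction. All points lie between the lines, with Rpl7l1 lowest at E10.5 and Rps27l lowest at E13.5.

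Among large subunit members, Rpl24, which in mice gives the Belly spot and tail phenotype when mutated, had the highest ventral difference at E10.5, with 674 FPKM dorsally and 840 FPKM ventrally (0.32). At E13.5 it stood at 2132 FPKM in hindgut and 2370 FPKM in urethra (0.15). Rpl34 was at 733 and 878 FPKM at E10.5 (0.26), and at 2933 FPKM in hindgut and 2336 FPKM in urethra (-0.33), the opposite direction. Its row is shared with a pseudogene. Rpl13 also changed sign, from 1340 and 1097 FPKM at E10.5 (-0.29) to 4572 and 5748 FPKM at E13.5 (0.33), in a shared span. Rpl41 had differences of -0.32 and -0.51 at the 2 ages, which become 0 under quantile normalization because it holds the same rank in both regions. Rpl35a stood at 3157 FPKM in hindgut and 2397 FPKM in urethra (-0.40), and Rpl23a at 4837 and 6085 FPKM (0.33), a member that shares its span.

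Rpl38, which in mice affects the translation of Hox mRNAs and the axial skeleton, was at 2249 and 1868 FPKM at E10.5 (-0.27) and at 5948 and 5385 FPKM at E13.5 (-0.14), and its span holds other features. Rpl5 and Rpl11, which with 5S rRNA bind Mdm2 and so stabilize p53, differed little between regions. Rpl5 was at 479 and 483 FPKM at E10.5 and at 573 and 655 FPKM at E13.5 (0.19). Rpl11 was at 1703 and 1707 FPKM at E10.5 and at 3750 and 4050 FPKM at E13.5 (0.11). Rpl10a, which is enriched on a subset of mouse ribosomes, was at 2531, 2806, 3958 and 4429 FPKM, with differences of 0.15 and 0.16. Rpl27a, the gene of the mouse Sooty foot ataxia mutant, was at 373, 356, 813 and 737 FPKM, and Rpl13a, a part of the interferon-gated translation block in human cells, at 676, 762, 1430 and 1418 FPKM in a row shared with small RNAs.

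Among small subunit members, Rps6, the substrate of the S6 kinases downstream of mTOR, was at 662 FPKM in dorsal and 821 FPKM in ventral cloaca (0.31). In hindgut it stood at 792 FPKM and in urethra at 952 FPKM (0.27). It was thus higher on the ventral side at both ages, by less than 2-fold. Rps3a1 was higher there as well, at 617 and 728 FPKM (0.24) and at 1981 and 2502 FPKM (0.34), in a shared span. Rps26 was at 1203 and 1426 FPKM at E10.5 (0.25) and at 4883 and 5681 FPKM at E13.5 (0.22). X-linked Rps4x was at 1027 and 1020 FPKM at E10.5 and at 2319 and 2941 FPKM at E13.5 (0.34), and Rps10 at 3259 and 4014 FPKM at E13.5 (0.30). In the other direction, Rps2 was at 850 and 700 FPKM at E10.5 (-0.28) and Rps28 at 8504 and 6531 FPKM at E13.5 (-0.38).

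Rps19, the gene most often mutated in human Diamond-Blackfan anaemia, was at 846 and 908 FPKM at E10.5 (0.10) and at 2091 and 1954 FPKM at E13.5 (-0.10). Rps14, lost in the human 5q- syndrome, was at 1145 and 1053 FPKM and at 3267 and 2802 FPKM (-0.12 and -0.22). Rps7 was at 500 and 557 FPKM and at 1099 and 1109 FPKM. Rps20, mutated in a dark-skinned mouse line, was at 1806 and 1955 FPKM and at 6950 and 6805 FPKM. Rpsa, also known as a laminin receptor, was at 396 and 436 FPKM and at 555 and 584 FPKM. Of these 5 genes, Rps14 at E13.5 had the largest difference in size.

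The paralogs ranged from levels like those of core members to 0. Rpl22l1 was more abundant than Rpl22 in every region, at 375, 354, 948 and 900 FPKM, which is 1.97, 1.78, 2.21 and 2.26 times the FPKM of Rpl22. Rpl36al, a relative of X-linked Rpl36a, stood at 796, 676, 1946 and 1450 FPKM beside 1318, 1356, 3384 and 3732 FPKM for Rpl36a. Its differences were -0.24 and -0.42 at the 2 ages, and those of Rpl36a were 0.04 and 0.14. Rps27l, known as a p53 target, was at 214 FPKM in dorsal and 255 FPKM in ventral cloaca (0.25), and at 721 FPKM in hindgut and 453 FPKM in urethra (-0.67). Its FPKM was 5.24% and 6.85% of that of Rps27 at E10.5, and 4.66% and 3.61% at E13.5.

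Rpl7l1, which takes part in ribosome assembly, was at 17.8 and 11.4 FPKM at E10.5 (-0.60) and at 23.6 and 24.4 FPKM at E13.5. Rps4y2, which RefSeq lists as Rps4l, a transcribed pseudogene, was at 23.6, 19.4, 48.7 and 64.5 FPKM, in a span shared with other features. Rpl3l, a gene of striated muscle, was listed at 0 in both parts of the cloaca and stood at 0.144 FPKM in hindgut and 0.018 FPKM in urethra. Rpl10l, known from the testis, was at 0.189 FPKM in ventral cloaca and listed at 0 in the other regions. Rpl39l, also a testis gene, was at 0.039 FPKM in urethra and listed at 0 elsewhere. The coding sequences of paralog and parent were identical at 52.8% of aligned positions for Rpl7l1, 66.9% for Rpl22l1, 73.2% for Rpl3l, 84.8% for Rpl10l, 85.3% for Rpl39l and 87.9% for Rpl36al. Reads that could come from either gene of a pair, or from a pseudogene, may have been split by the authors' counting. The 5 listed pseudogene features are named after Rps15a, Rplp2, Rpl31 and Rps19, not after a gene of these pairs, and stood between 2.78 and 91.5 FPKM.

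**Figure D4:**
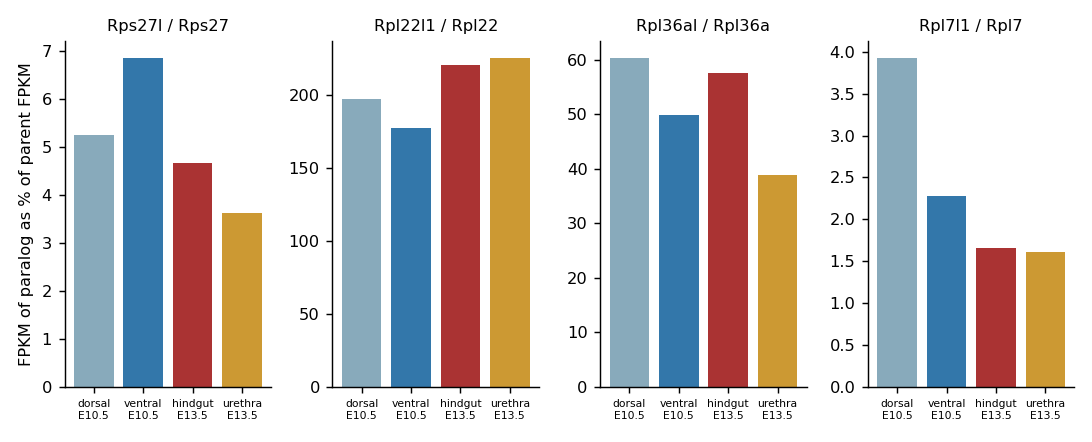
FPKM of 4 paralogs as a percentage of the FPKM of their parent genes in the 4 regions, on axes that start at 0 and differ between panels. Bars are single deposited values without an error. Rpl22l1 exceeds Rpl22 in all regions, and the other 3 stay below their parents.

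All 77 core members had higher FPKM at E13.5 than at E10.5 on both sides, in separate tables that may not share a scale. The median ratio was 2.85 on the dorsal side and 2.82 on the ventral side, and 61 and 60 core members stood at 2 or above. Among 10119 other features with at least 1 FPKM in all 4 values, the median ratios were 1.02 and 1.00, and 15.5% and 14.1% stood at 2 or above. The age ratio was highest for Rps9, at 344 and 335 FPKM at E10.5 and 2339 and 2533 FPKM at E13.5, with ratios of 6.81 and 7.55. It was lowest for Rpl15 dorsally (1.02) and for Rps6 ventrally (1.16).

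Age ratio and transcript length also went together. Over the core members Spearman rho was -0.47 dorsally and -0.40 ventrally with the first length definition, -0.64 and -0.56 with the second, and -0.64 and -0.54 with the last. With the first definition, the 10 core members under 500 bases had median ratios of 3.42 and 3.27, and the 23 of 1000 bases or more had 2.12 and 2.07. Other features showed a like order, with 2.11 and 1.76 for 53 features under 500 bases, and 1.00 and 0.97 for 8666 of 1000 bases or more. For other features under 500 bases those medians were 1.35 and 1.22 with the second definition, over 162 features, and 2.18 and 1.83 with the last, over 57. How far short members stand from other short features thus depends on how length is defined. Age, table and the short-transcript pattern cannot be told apart here.

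Other genes of the translation machinery were described from lists of their names. Of 72 ribosome biogenesis features, 58 had higher FPKM ventrally at E10.5, with a median difference of 0.38. Over all features, 6484 of 12379 lay above 0 and the median was 0.04. Of the 72, 4 were 2-fold higher ventrally and 1 dorsally, where 10.6% and 9.62% of all features were. The 4 include Ddx56, an RNA helicase, at 3.60 and 14.1 FPKM, and Surf6, a nucleolar protein, at 6.30 and 18.9 FPKM. The one in the other direction was Eif6, which keeps the subunits apart, at 90.6 FPKM dorsally and 43.9 FPKM ventrally, named after its values were seen. At E13.5 the median of the list was 0.05, and Nle1 alone passed 2-fold, at 16.3 FPKM in hindgut and 5.16 FPKM in urethra. Of all features, 4.59% passed on the hindgut side and 4.16% on the urethral side. Whether the lists differ from the ribosomal protein genes was not tested.

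Outside the name rule, Fau was at 999, 823, 2838 and 2357 FPKM, with differences of -0.28 and -0.27. Gnb2l1, the scaffold protein RACK1 of the small subunit, was at 434, 495, 1278 and 1395 FPKM, with differences of 0.19 and 0.13, in a shared span. Of 36 translation initiation features, Eif2b3 was 2-fold higher ventrally at E10.5, at 2.36 and 7.22 FPKM, where 10.6% of all features were. The list medians were 0.03 at both ages. Elongation and termination factors had medians of 0.13 and 0.18 over 9 features, and 0 were 2-fold apart. The 16 other TOP mRNAs and nascent chain factors had medians of -0.07 and 0.16, and 0 were 2-fold apart. Over all features, 10.6% passed ventrally and 9.62% dorsally at E10.5, and 4.16% and 4.59% at E13.5. In lists of 9 and 16 features a count of 0 therefore says little. Of 76 mitochondrial ribosomal proteins, which serve a separate ribosome, 4 were 2-fold higher ventrally and 3 dorsally at E10.5, with a median of 0.00, where 10.6% and 9.62% of all features passed in these directions. Mrps24 was at 9.82 and 56.1 FPKM, Mrps30 at 9.67 and 26.7 FPKM, and Mrps12 at 43.6 and 15.9 FPKM. At E13.5 none of them passed, where 4.16% and 4.59% of all features did, and the median was -0.14.

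**Figure D5:**
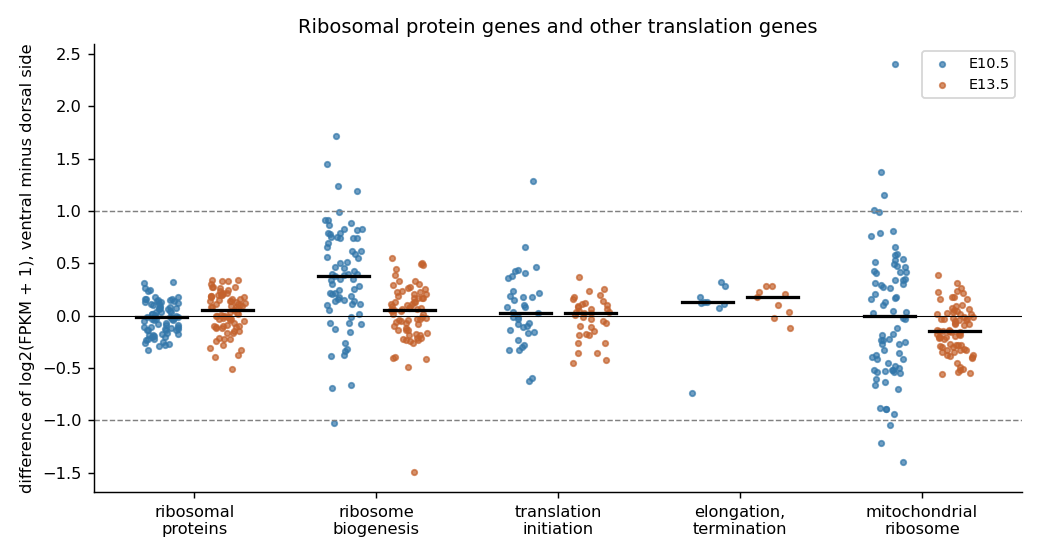
Difference of log2(FPKM + 1), ventral minus dorsal side at each age, for the 77 core ribosomal protein genes and for 4 lists of other translation genes. Points are features, black bars are medians, and dashed lines mark 2-fold. The ribosomal protein genes lie within 2-fold, and the biogenesis list has its median at 0.38 at E10.5.

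Among regulators, Myc, a transcription factor known to act on ribosome genes, was at 16.5 FPKM in dorsal and 95.4 FPKM in ventral cloaca (2.46), and at 14.9 FPKM in hindgut and 31.6 FPKM in urethra (1.04, or 0.88 with a pseudocount of 5). Its antagonist Mxd4 was at 14.4 and 6.36 FPKM at E10.5 (-1.06), and at 11.7 and 19.3 FPKM at E13.5 (0.67), the opposite direction. The other 8 features of that list did not reach 2-fold. Among them Mycn was at 29.6 and 25.9 FPKM at E10.5 (-0.19), and at 96.2 FPKM in hindgut and 66.1 FPKM in urethra (-0.53). Of 16 mTOR pathway features, only Deptor, an mTOR inhibitor, passed 2-fold. It was higher dorsally at both ages, at 9.00 and 3.89 FPKM and at 6.66 and 1.37 FPKM. Of all features, 9.62% passed dorsally at E10.5 and 4.59% at E13.5. Of 16 p53 target features above the minimum, 3 were 2-fold higher ventrally and 1 dorsally at E10.5, where 10.6% and 9.62% of all features were. At E13.5, 1 was 2-fold higher in urethra, as were 4.16% of all features. Cdkn1a, a cell cycle inhibitor, was at 14.1 and 139 FPKM at E10.5 (3.21) and at 40.4 and 35.0 FPKM at E13.5 (-0.20). Perp, an epithelial membrane protein, was at 7.15 and 73.1 FPKM at E10.5, and Sesn1 at 5.26 FPKM in hindgut and 16.1 FPKM in urethra.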

How the data were processed

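RNA from laser-captured tissue was amplified and sequenced, per the labels' protocols. Per the file headers, the authors deposited FPKM in 2 tables with 1 column per region. Cufflinks 2.2.1 and the build mm10 stand in the submitters' processing notes. What aligner, gene annotation and strand setting were used, and how libraries were combined, was not given in the sources used here. The planned limma fit needs a value per library and was not possible, so the values are described without a test. Low values times transcript length were searched for a common step of whole reads. At the best of many trial steps, at most 25.2% lay within 0.1 of a whole number. For a single step 20% would if spread evenly, so the 2 shares are not alike. The lengths may differ from those the authors used, and combined libraries can hide a step, so nothing on depth was concluded.

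Members above 1 FPKM in either region were compared as log2(FPKM + 1), which understates changes of low genes, and a difference of 1 was counted. The members and lists were chosen with earlier results of these data known. Named genes were all paralogs, up to 6 members at each end of the differences at each age, the 5 highest and 5 lowest core members, members listed at 0, 15 members always, and up to 3 genes per list past 2-fold. Rps9, Eif6, Mycn and Mest were named after their values were seen, as were the genes of the printed start windows.

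Transcript length was first the median over RefSeq-linked transcripts of GENCODE vM21. After the relation to level had been computed, Rps20 was seen to exceed its locus, and transcripts were limited to the deposited locus (150 bases of tolerance), which leaves 8 core members without a length. Transcripts without a RefSeq accession were then dropped too, which leaves 13 without one. All 3 definitions are reported and the first, which covers every core member, is plotted. Protein identity was planned, but coding sequences were aligned instead. Python 3.11.15, pandas 2.3.3, numpy 2.4.6, Biopython 1.88 and matplotlib 3.10.9 were used. The counting step was run on simulated data with planted changes well past 2-fold and little noise. Its outcome was set by that choice, so it checks the code and says nothing about these data. Some results of the lists are not reported here. Alternatives were other pseudocounts, scalings, minimums and member sets.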

Additional observations from a re-analysis of the deposited data

How the results depend on the processing

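No paired analysis was possible because each region has 1 deposited value per gene, and for the same reason no embryo could be left out. The count of members past 2-fold stayed at 0 in each direction and age under pseudocounts of 0.1 and 5, upper-quartile scaling and quantile normalization. It was also 0 with no minimum, with one of 5 FPKM, for members alone at their span and for members without paralogs. A higher minimum and the smaller member sets only take members away, and a pseudocount of 5 only makes differences smaller. Their counts of 0 were thus fixed in advance. Of 336 values of single genes, 333 kept their side of 2-fold. With a pseudocount of 0.1, Rpl10l passed at E10.5 (1.53) and Rpl3l at E13.5 (-1.05). Both have values under 1 FPKM, which the minimum keeps out of the count. With a pseudocount of 5, Myc no longer passed at E13.5 (0.88). Under quantile normalization 12 of 84 differences of named genes had the other sign, all of them 0.14 or less in size as deposited. Differences that became 0 are not among the 12, and some of these were larger as deposited. Examples at E13.5 are Rpl41 (-0.51) and Rps27 (-0.31). The share of summed FPKM moved in both directions, each of them fixed in advance by how the alternative is built. With other features limited to 1000 FPKM it was 23.8% and 23.2% in dorsal and ventral cloaca and 45.1% and 45.6% in hindgut and urethra. With members alone at their span it was 12.8%, 12.6%, 25.02% and 25.34%. Limiting the other features makes the total smaller and can only raise the share. Taking members out of their sum over an unchanged total can only lower it.

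Of 16 length relations under the later length definitions, none reversed, and 12 moved by 0.1 or more, all away from 0. The difference at E13.5 had a rho of 0.39 with length, then 0.47 and 0.47, and that at E10.5 0.25, 0.23 and 0.25. Limits of 0.1 on the log2 scale or for rho, and of 10% for a share, were set after values were seen. The median of the biogenesis list at E10.5 lay between 0.29 and 0.41 under the alternatives, which were added after the data had been seen.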
